A study of Mus musculus with 15 samples.

Results

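Nnt and 9 genes of antioxidant enzymes were followed in cultured mouse bone macrophages: Sod1, Sod2, Cat, Gpx1, Gpx4, Prdx1, Txnrd1, Hmox1 and Nqo1. These 10 genes were taken by symbol from a table of 16886 genes, and all 10 passed the filter on low counts, which 12198 genes passed. The genes were chosen by name with earlier results of these libraries known, and no record says which value placed each one. Nnt is treated as selected on its counts in the knockouts against WT, so its differences between genotypes are a description with no test. The other 9 genes were tested between genotypes. If such differences also placed any of them, their adjusted p-values overstate the evidence, which could not be checked.

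The libraries came from wild-type mice (WT, 5 libraries), mice lacking the lipoprotein receptor VLDLR (VLDLR_KO, 5 libraries) and mice lacking the guidance receptor ROBO4 (ROBO4_KO, 5 libraries). The cells of all 15 libraries were kept for 14 days with M-CSF at 20 ng/ml, the growth factor on which macrophages depend, and all were labelled with the strain C57BL6J. The sources used here give neither age nor the design of the knockout alleles or the crosses behind them. The labels do not say that replicates were separate animals or cultures, so a p-value covers only how far these samples spread. Sample codes came with a digit before the letter B (WT replicates 3 to 5, ROBO4_KO 1 and 2, VLDLR_KO 1 and 2) or after it (WT 1 and 2, ROBO4_KO 3 to 5, VLDLR_KO 3 to 5). The labels do not explain these code forms, and genotypes were compared within each.

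Totals ran from 18132866 to 19005966 estimated counts per library. The 8 macrophage markers summed to 10500 to 34200 CPM (counts scaled to a fixed library total) and the sum was highest in VLDLR_KO with the digit before B (27800 to 34200). Lyz2 was the highest of the 8 in range (4970 to 26400 CPM, with no other marker above 3240 CPM), and Itgam ran from 133 to 497 CPM with the digit before B and from 479 to 917 CPM after it. Markers of B cells, T cells and erythroid cells stayed at or below 0.502 CPM in sum. The osteoclast markers Ctsk and Acp5 followed the code form, with sums over the list of 5.78 to 16.9 CPM with the digit before B and 44.9 to 211 CPM with the digit after B, while the third marker, Oscar, did not exceed 0.106 CPM. Stromal markers summed to 37.4 to 175 CPM in WT, 32.1 to 154 CPM in ROBO4_KO and 2.4 to 18.7 CPM in VLDLR_KO with the digit before B. Endothelial markers there were 48.9 to 52.1, 43.8 to 58.2 and 9.21 to 19.2 CPM. Neutrophil markers summed to at most 0.951 CPM with the digit before B and to 1.7 to 7.98 CPM with the digit after B. WT replicates 1 and 2, the only WT libraries with the digit after B, stood apart by the immediate-early gene Fos (856 and 944 CPM, against 12.5 to 56.2 CPM in the other 13). The part of these differences in the results below was not tested, except where values without both WT libraries are given.

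Nnt encodes nicotinamide nucleotide transhydrogenase, an inner-membrane protein that uses the mitochondrial proton gradient to make NADPH. NADPH feeds glutathione reductase and thioredoxin reductase, which keep glutathione peroxidases and peroxiredoxins able to remove peroxides, while superoxide dismutases turn superoxide into hydrogen peroxide. Several of these enzymes are targets of the transcription factor NRF2, which binds antioxidant response elements. C57BL/6J mice are known for a deletion within Nnt that related substrains lack.

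Promoters were searched for the core of the antioxidant response element, TGACNNNGC, on both strands. Windows ran from 250 bases before to 50 bases after each annotated start of a gene (RefSeq, GRCm38.p6), and a gene can have several starts. Entries were matched for 8 of the 10 genes, all but Nnt and Hmox1, with 13 windows. The motif was present in 3 of the 13 windows, 1 each of Sod1, Prdx1 and Txnrd1, and in 12.4% of all 32851 windows. By gene that is 3 of 8, beside 14.0% of 27025 genes. The 250 bases before the start are shown for these 3 windows. All lie on the plus strand and read 5′ to 3′, with the match, which fits the motif on the other strand, in capitals.
Sod1 chr16:90220512-90220761: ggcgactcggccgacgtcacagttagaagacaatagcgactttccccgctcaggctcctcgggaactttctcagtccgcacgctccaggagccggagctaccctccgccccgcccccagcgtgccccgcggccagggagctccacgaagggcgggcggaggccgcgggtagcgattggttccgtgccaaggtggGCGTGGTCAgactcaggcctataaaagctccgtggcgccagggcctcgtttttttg
Prdx1 chr4:116685349-116685598: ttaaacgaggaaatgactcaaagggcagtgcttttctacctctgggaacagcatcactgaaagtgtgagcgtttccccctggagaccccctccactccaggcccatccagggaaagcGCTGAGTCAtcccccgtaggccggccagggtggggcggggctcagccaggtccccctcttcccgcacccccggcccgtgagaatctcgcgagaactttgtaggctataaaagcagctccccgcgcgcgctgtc
Txnrd1 chr10:82858956-82859205: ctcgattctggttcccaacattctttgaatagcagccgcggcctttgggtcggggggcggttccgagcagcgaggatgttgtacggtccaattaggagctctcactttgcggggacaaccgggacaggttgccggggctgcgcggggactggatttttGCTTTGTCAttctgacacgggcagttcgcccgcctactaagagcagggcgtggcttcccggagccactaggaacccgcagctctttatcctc
The match begins 56 bases before the start in Sod1, 133 in Prdx1 and 92 in Txnrd1. In Txnrd1 this is an internal start, while the window at the first start of the gene held no match. Which transcript begins there was not examined. It is a match of letters only, and occupancy was not measured.

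Nnt was higher in every knockout library than in every WT library. Nnt (Entrez 18115, chromosome 13, 119335527 to 119409257 in RefSeq GRCm38.p6) had 29.0, 28.4, 23.2, 25.4 and 24.5 CPM in WT replicates 1 to 5. It had 50.6, 52.8, 44.9, 56.1 and 60.7 CPM in ROBO4_KO replicates 1 to 5. In VLDLR_KO replicates 1 to 5 the values were 53.5, 42.9, 63.0, 53.0 and 61.1 CPM. The highest WT library (29.0 CPM) lay below the lowest knockout library (42.9 CPM), and the knockouts overlapped each other. Genotype means were 26.1 ± 2.51 CPM in WT, 53.0 ± 5.92 in ROBO4_KO and 54.7 ± 7.95 in VLDLR_KO (SD, n = 5 each).

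The log2 fold change of Nnt in VLDLR_KO against WT was 0.98 (SE 0.13) with the digit before B and 1.04 (SE 0.14) with the digit after B. In ROBO4_KO against WT it was 1.09 (SE 0.13) and 0.91 (SE 0.14). VLDLR_KO and ROBO4_KO differed by -0.10 (SE 0.14) and 0.13 (SE 0.12). Both knockouts were set against the same WT libraries. Of the 12198 genes, 33 (0.271%) had all 10 knockout libraries above all 5 WT libraries and 34 (0.279%) had all of them below. Since Nnt is treated as chosen by this contrast, nothing is read from that share. None of the other 9 genes had all knockout libraries above all WT libraries.

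**Figure D1:**
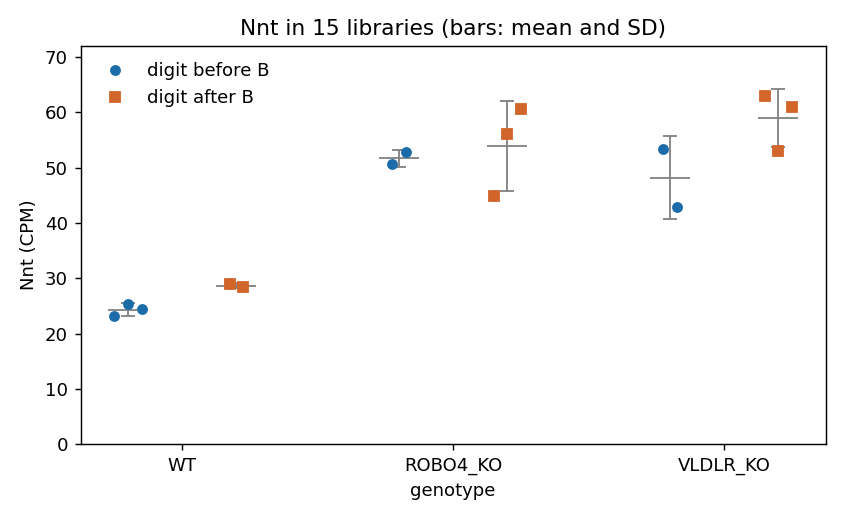
Nnt in CPM (vertical axis) for each of the 15 libraries by genotype (horizontal axis), circles for codes with the digit before B and squares for the digit after B, with the mean and SD of each genotype and form. All knockout libraries sit at or above 42.9 CPM and all WT libraries at or below 29.0 CPM.

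On the length-scaled FPKM of the deposited table Nnt had 6.91 to 8.05 in WT, 12.3 to 18 in ROBO4_KO and 11.4 to 18.8 in VLDLR_KO. All counts of Nnt were assigned to 1 transcript, NM_001308506.1, so no shift between transcripts could be read. Nnt was thus above 0 in all 15 libraries. Reads over single exons were not analysed here, and a deletion inside the gene cannot be told apart from an intact transcript in these totals. Between code forms, which did not choose it, Nnt differed by 0.20 (SE 0.08) on the log2 scale, digit after B minus digit before B (edgeR adjusted p = 0.0525).

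The deposited span of Nnt reaches to 119429801 and overlaps the start of Paip1 (119428280), which encodes a translation regulator bound by poly(A)-binding protein. Paip1 had 65.8 ± 4.28 CPM in WT, 71.8 ± 4.02 in ROBO4_KO and 65.4 ± 4.39 in VLDLR_KO (SD, n = 5 each), and these ranges overlapped. Its log2 fold changes against WT lay between -0.07 and 0.14. Of 17 tested genes starting within 5 Mb of Nnt, edgeR called none in ROBO4_KO against WT in either form (3 and 1 at an unadjusted p under 0.05, and 0 and 1 by DESeq2). In VLDLR_KO against WT 3 were higher and 2 lower with the digit before B, and 0 higher and 2 lower with the digit after B, where 33.2% and 13.4% of all genes were called. In ROBO4_KO that share was 0.328% and 1.59%. Their median log2 fold changes in VLDLR_KO were 0.10 and -0.21, beside -0.0017 and -0.00046 over all genes tested. Hmgcs1, an enzyme of cholesterol synthesis, fell by 1.39 (SE 0.17, adjusted p = 7.41e-05), and 4833420G17Rik rose by 0.64 (SE 0.11, adjusted p = 0.000861), both with the digit before B. With the digit after B, Hmgcs1 had -0.40 (adjusted p = 0.114) and 4833420G17Rik had -0.29 (adjusted p = 0.09), and the difference between forms was 0.99 (adjusted p = 0.0146) and -0.94 (adjusted p = 0.0021).

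Over the 15 libraries the log2 CPM of Efcab7 was most like that of Nnt (Pearson r = 0.967), followed by Gm41885 (0.96), Gm43828 (0.958), Gm42031 (0.939) and Aph1b (0.936). These correlations are descriptions over the same libraries, which split into WT and knockouts. Aph1b, a subunit of gamma-secretase, had 12.2 to 16.2 CPM in WT, 36.0 to 46.9 in ROBO4_KO and 27.9 to 44.9 in VLDLR_KO. Efcab7 was scarce, with 0.839 to 1.03 CPM in WT, 2.03 to 3.13 in ROBO4_KO and 1.84 to 2.65 in VLDLR_KO. Gm42031 was at 0 in all 5 WT libraries, at 1.46 to 57 CPM in ROBO4_KO and at 8.06 to 54.5 CPM in VLDLR_KO. None of the other 9 antioxidant genes had an r with Nnt above 0.434 (Txnrd1).

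Per length, Prdx1 was the most abundant of the 10 genes, with a mean of 2347 FPKM over 15 libraries. Gpx4 (430 FPKM), Hmox1 (331), Sod1 (326), Cat (251) and Gpx1 (226) followed, then Txnrd1 (80.7), Sod2 (17.9), Nnt (12.9) and Nqo1 (1.74). The ranges of Gpx4, Hmox1, Sod1, Cat and Gpx1 overlapped in part, as did those of Sod2 and Nnt, so their order is not fixed by these libraries. Reads of Prdx1 and Gpx4 may be shared with the annotated pseudogenes Prdx1-ps, Gpx4-ps1 and Gpx4-ps2, which makes their levels uncertain.

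Among the superoxide dismutases, mitochondrial Sod2 rose in VLDLR_KO with the digit before B. Sod2 had 57.9, 59.1 and 62.1 CPM in WT replicates 3 to 5, 62.6 and 61.8 in ROBO4_KO 1 and 2, and 76.5 and 81.8 in VLDLR_KO 1 and 2. Both VLDLR_KO libraries lay above the other 5. The log2 fold change was 0.41 (SE 0.09, edgeR adjusted p = 0.00495) against WT, and the call held without any 1 library. Where that leaves 1 library in a group, here and below, its spread is taken from the other groups. Against ROBO4_KO it was 0.35 (SE 0.10, adjusted p = 0.0206), a call lost without ROBO4_KO replicate 1 or 2 or VLDLR_KO replicate 2 (adjusted p 0.0958 to 0.0987). With the digit after B, Sod2 had 66.8 and 68.8 CPM in WT, 62.3, 62.7 and 61.8 in ROBO4_KO and 73.9, 60.2 and 64.7 in VLDLR_KO, and VLDLR_KO against WT was -0.03 (SE 0.09, adjusted p = 0.856). The difference between forms was -0.44 (SE 0.13, adjusted p = 0.0368), lost without any of 11 of the 15 libraries (adjusted p 0.05 to 0.129).

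Sod1, the cytosolic copper and zinc enzyme, was called in no genotype comparison. It had 132 and 236 CPM in VLDLR_KO replicates 1 and 2, and 136 to 189 CPM in the other 13 libraries. VLDLR_KO replicate 2 was also the highest library for Gpx4 (547 CPM, against 247 to 399 in the others). Cat, the peroxisomal catalase, varied least of the abundant genes, from 492 to 685 CPM, and its log2 fold changes between genotypes lay between -0.18 and 0.25 with no call.

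**Figure D2:**
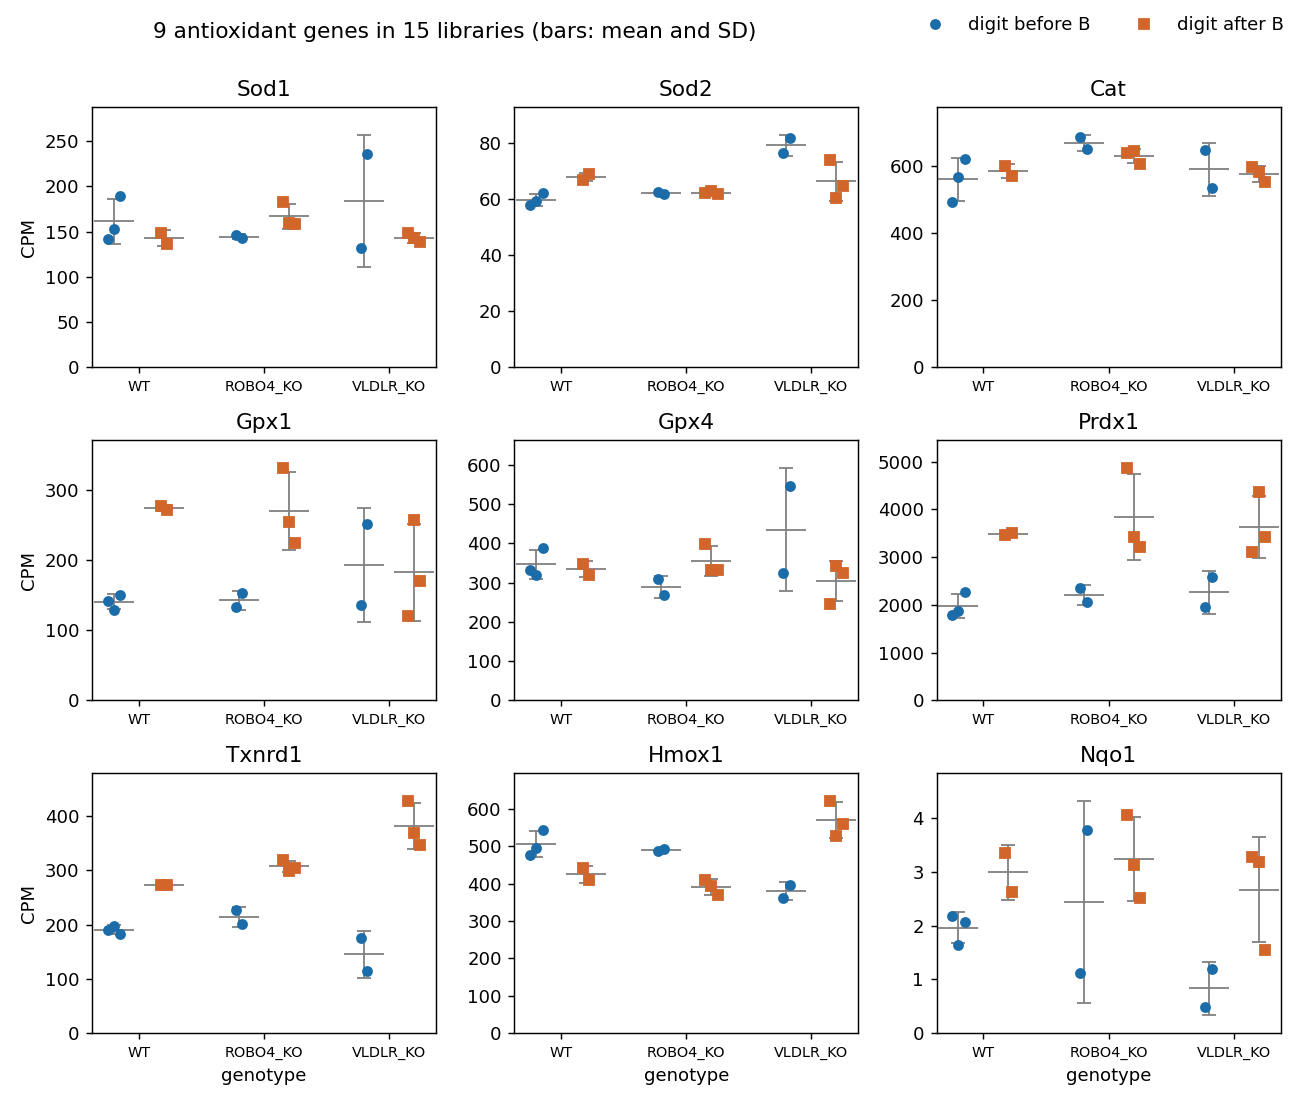
CPM (vertical axes, from 0) of the 9 antioxidant genes in each library by genotype, circles for the digit before B and squares for the digit after B, with mean and SD. Prdx1 and Txnrd1 separate by code form, and Hmox1 in VLDLR_KO lies below WT in one form and above it in the other.

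Hmox1 moved in opposite directions in the code forms. Hmox1 encodes heme oxygenase, which degrades heme. With the digit before B it had 475, 496 and 544 CPM in WT replicates 3 to 5, 486 and 492 in ROBO4_KO 1 and 2, and 363 and 397 in VLDLR_KO 1 and 2, the lowest of these 7. It fell by 0.41 on the log2 scale against WT (SE 0.10, edgeR adjusted p = 0.00808), which held without any 1 library, with the spread of a lone VLDLR_KO library taken from the other groups, and by 0.36 against ROBO4_KO (SE 0.11, adjusted p = 0.0237), which was lost without ROBO4_KO 1 or 2 or VLDLR_KO 1 (adjusted p 0.0532 to 0.0984).

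With the digit after B, Hmox1 had 441 and 409 CPM in WT replicates 1 and 2, 410, 392 and 369 in ROBO4_KO 3 to 5, and 621, 527 and 559 in VLDLR_KO 3 to 5. Here the VLDLR_KO libraries were the highest 3 of 8. Hmox1 rose by 0.42 against WT (SE 0.10, edgeR adjusted p = 0.014), lost without WT 1, WT 2 or VLDLR_KO 3 (adjusted p 0.0523 to 0.174), and by 0.54 against ROBO4_KO (SE 0.09, adjusted p = 0.00121), which held without any 1 library. The difference between forms was 0.83 for VLDLR_KO against WT (SE 0.14, adjusted p = 0.00282) and 0.91 against ROBO4_KO (SE 0.14, adjusted p = 0.00513), and both held without any 1 library. With 1 genotype effect over both forms the fold against WT was 0.06 (adjusted p = 0.803).

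Txnrd1, the cytosolic thioredoxin reductase, showed a like contrast on less firm ground. With the digit before B it had 190, 198 and 182 CPM in WT, 227 and 201 in ROBO4_KO and 176 and 115 in VLDLR_KO. In the other code form the values were 272 and 273 CPM in WT, 319, 299 and 304 in ROBO4_KO and 428, 369 and 346 in VLDLR_KO. VLDLR_KO was thus lowest in the first form and highest in the second, with no overlap with WT. Against WT the log2 fold change was -0.39 (SE 0.15, edgeR adjusted p = 0.0607) and 0.48 (SE 0.15, adjusted p = 0.0482). The second call was lost without any of 13 libraries, all but VLDLR_KO 1 and 2 (adjusted p 0.0516 to 0.244).

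The difference of Txnrd1 between forms was 0.87 for VLDLR_KO against WT (SE 0.21, edgeR adjusted p = 0.0185), lost without WT 1 or WT 2 (0.0707 and 0.0749). Against ROBO4_KO it was 0.86 (SE 0.21, adjusted p = 0.029), lost without any of 6 libraries, namely ROBO4_KO 1, 2, 4 and 5 and VLDLR_KO 2 and 3 (adjusted p 0.0522 to 0.113). With the digit before B Txnrd1 fell by 0.56 in VLDLR_KO against ROBO4_KO (SE 0.16, adjusted p = 0.0225), lost without ROBO4_KO 1 or 2 or VLDLR_KO 2 (adjusted p 0.0518 to 0.167).

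Counts of Txnrd1 were spread over 4 transcripts, of which NM_001042513.1 held 75.9%. This transcript fell in VLDLR_KO with the digit before B, by 0.96 against WT (SE 0.19, edgeR adjusted p = 0.0169) and by 1.03 against ROBO4_KO (SE 0.20, adjusted p = 0.0201). Among all 36240 transcripts tested, 4.2% and 2.95% were called there. With the digit after B, NM_001042513.1 had 0.14 in VLDLR_KO against WT (SE 0.18, edgeR adjusted p = 0.955), so the rise of the gene total was not called for it. Its difference between forms was 1.10 (SE 0.26, adjusted p = 0.0896). The next transcript, NM_015762.2, chosen after its values were seen, made up 38.1% to 42.9% of Txnrd1 in VLDLR_KO with the digit before B and 31.6% to 37.2% with the digit after B. Outside VLDLR_KO its share was 7.63% to 20.1% in WT and 12.3% to 19.8% in ROBO4_KO, so all 5 VLDLR_KO libraries lay above the other 10. Its own level did not pass the test in VLDLR_KO against WT (log2 fold change 1.13, SE 0.37, adjusted p = 0.128, and 1.59, SE 0.40, adjusted p = 0.092). The share itself was not tested, and how many other transcripts separate the genotypes this way was not counted. Nothing is therefore read from this separation.

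**Figure D3:**
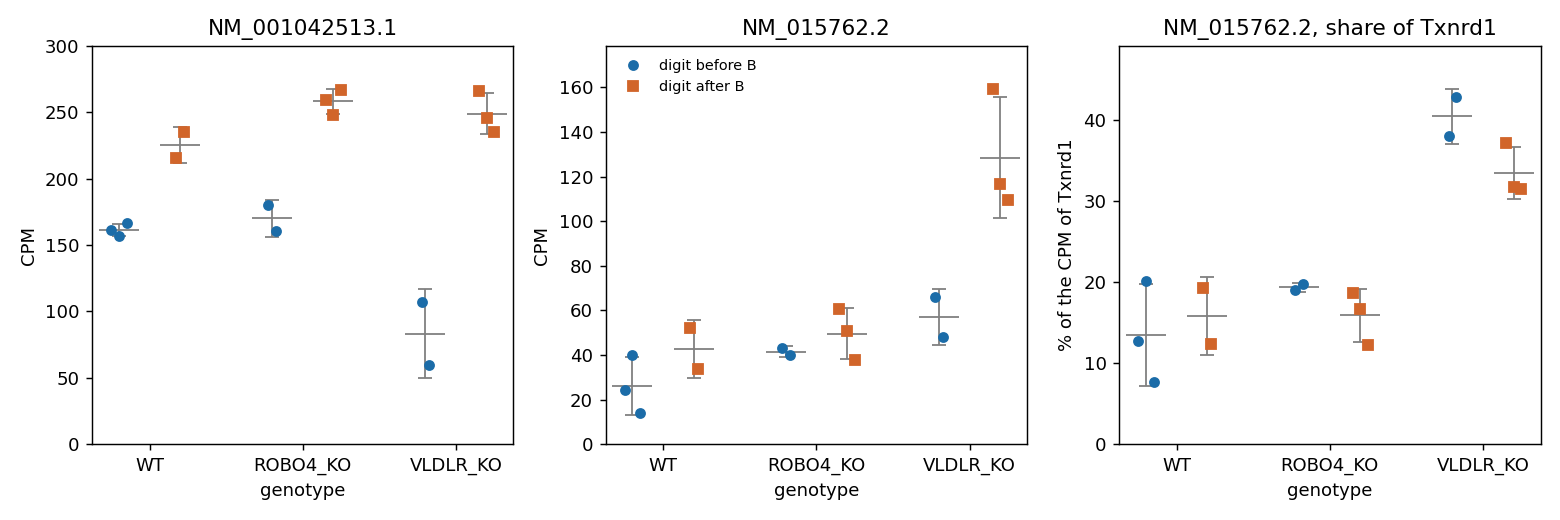
CPM of the transcripts NM_001042513.1 and NM_015762.2 of Txnrd1 and, at the right, the share of NM_015762.2 in percent of the CPM of Txnrd1, for each library by genotype and code form with mean and SD. The share is 31.6% or more in the 5 VLDLR_KO libraries and 20.1% or less in the other 10. NM_015762.2 was chosen after its values were seen, and its share was not tested.

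Over the 9 genes, VLDLR_KO against WT gave 2 calls with the digit before B (Sod2 and Hmox1), where 33.2% of all genes were called, and 2 with the digit after B (Txnrd1 and Hmox1), where 13.4% were. VLDLR_KO against ROBO4_KO gave 3 calls (29.6% of all genes) and 1 call (11.9%). In ROBO4_KO against WT edgeR called 0 of 9 in each form, with 0.328% and 1.59% of all genes called. DESeq2 also called 0 of 9 in each, and 1 gene (Cat) and 0 genes had an unadjusted p under 0.05. The median log2 fold change of the 9 genes in VLDLR_KO against WT was 0.19 and -0.02, beside -0.0017 and -0.00046 over all genes. These comparisons share their WT or VLDLR_KO libraries. For the difference between forms, 3 of 9 were called for VLDLR_KO against WT (14.5% of all genes), 2 for VLDLR_KO against ROBO4_KO (8.45%) and 0 for ROBO4_KO against WT (0.385%), where 0 had an unadjusted p under 0.05 and DESeq2 called 0. With the digit of the sample code as a replicate block, the difference between forms was no longer called for Sod2 against WT (edgeR adjusted p = 0.104) and Txnrd1 against ROBO4_KO (adjusted p = 0.149).

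**Figure D4:**
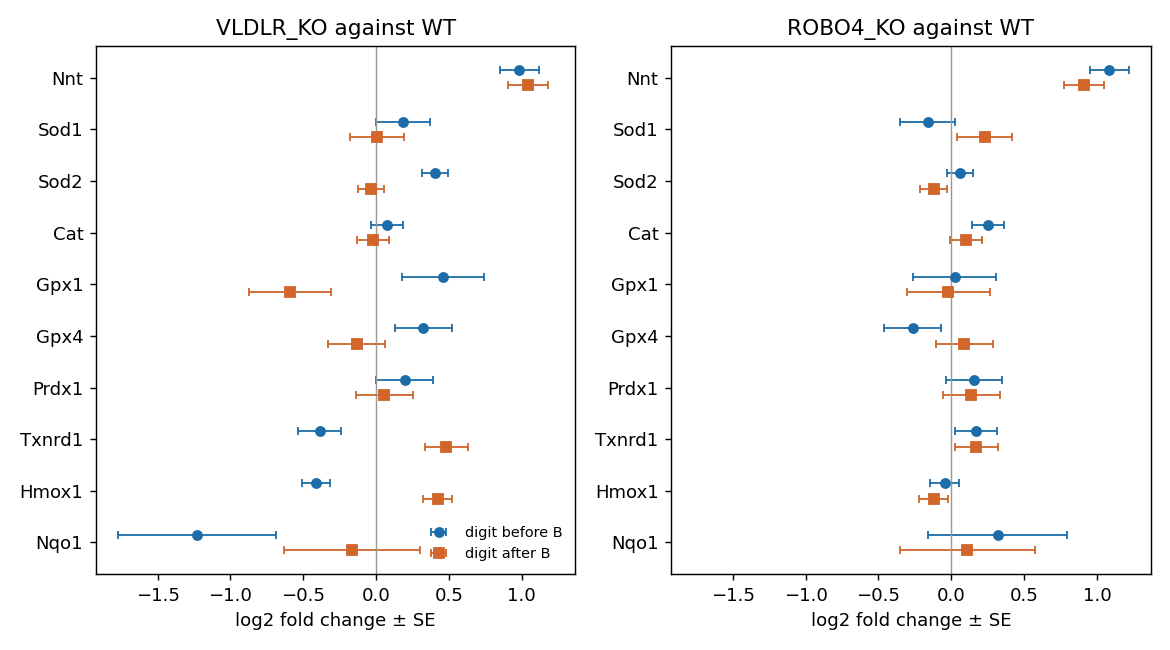
Log2 fold change (horizontal axis) with SE of the 10 genes in VLDLR_KO (left) and ROBO4_KO (right) against WT, circles for the digit before B and squares for the digit after B. Nnt lies between 0.91 and 1.09 in all 4 comparisons, while Hmox1 and Txnrd1 in VLDLR_KO lie on opposite sides of 0 in the code forms.

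Of the 10 genes, 4 differed between code forms and all 4 were higher with the digit after B on average over the genotypes, where 45.6% of all genes were called and 22.4% were called higher. Prdx1, an abundant cytosolic peroxiredoxin, had 1780 to 2579 CPM in the 7 libraries with the digit before B and 3115 to 4869 CPM in the 8 with the digit after B. Txnrd1 had 115 to 227 CPM and 272 to 428 CPM. Neither gene overlapped between forms, which held for 764 genes (6.26%) in this direction. The log2 fold change, digit after B against before, was 0.77 for Prdx1 (SE 0.11, edgeR adjusted p = 0.000142) and 0.81 for Txnrd1 (SE 0.09, adjusted p = 9.93e-06). A fit with the digit of the sample code as a replicate block compared digit 1 after B with digit 3 before B. In that narrower comparison Prdx1 was not called (edgeR adjusted p = 0.0573), nor were Gpx1 (0.588) and Nqo1 (0.261), which are described next. It did not average over the digits of each form, so it cannot decide whether these calls hold. Prdx1 and Txnrd1 each have a promoter window with the motif printed above (1 of 3 windows in Txnrd1). So does Sod1, which did not pass the test between forms (-0.11, SE 0.11, adjusted p = 0.424), while the windows of Gpx1 and Nqo1 held no match. Whether the motif has a part in the differences between forms was not tested.

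Gpx1, a cytosolic glutathione peroxidase, rose by 0.60 (SE 0.17, edgeR adjusted p = 0.0103), from 129 to 251 CPM with the digit before B to 120 to 331 CPM with the digit after B, and these ranges overlapped. Group means of Gpx1 went from 140 to 274 CPM in WT and from 143 to 270 CPM in ROBO4_KO. In VLDLR_KO they were 193 and 182 CPM, so the mean was not higher. The mean of 193 CPM comes from 135 CPM in VLDLR_KO replicate 1 and 251 CPM in replicate 2, the highest library with the digit before B. VLDLR_KO replicates 3 to 5 had 120, 257 and 169 CPM. The lack of a rise in VLDLR_KO thus depends on replicate 2. Nqo1, a quinone reductase often read as an NRF2 target, rose by 0.89 (SE 0.29, adjusted p = 0.022) at a low level of 0.491 to 4.06 CPM. The call for Nqo1 was lost without WT 1 or VLDLR_KO 1 (0.0569 and 0.0586). With both WT libraries of the digit after B left out and 1 form effect, Gpx1 (0.40, adjusted p = 0.245) and Nqo1 (0.96, adjusted p = 0.0885) were no longer called. Over the 15 libraries Gpx1 and Prdx1 had a Pearson r of 0.78, Prdx1 and Txnrd1 of 0.71, and Gpx4 and Sod1 of 0.81, as descriptions over shared libraries.

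The wider pathway was read through 9 lists with 103 genes in the table, 100 of them tested. In VLDLR_KO against WT 39 were called with the digit before B (30 higher, 9 lower) and 18 with the digit after B (11 higher, 7 lower). Their median log2 fold changes were 0.16 and 0.01, and 33.2% and 13.4% of all genes were called. In ROBO4_KO against WT 1 and 2 of the 100 were called, all lower, beside 0.328% and 1.59% of all genes. These shares of all genes count both directions together. No test of a list as a whole was run, so the counts by list below are descriptions and not results about the lists.

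The list of NADPH supply holds 15 tested genes, not all of which make NADPH themselves. In VLDLR_KO against WT 3 were higher and 2 lower with the digit before B (33.2% of all genes called). With the digit after B 4 were higher and 1 lower (13.4%). Idh2, the mitochondrial isocitrate dehydrogenase that makes NADPH, rose by 0.45 (SE 0.13, edgeR adjusted p = 0.0202) and 0.54 (SE 0.14, adjusted p = 0.0186). Those calls were lost without WT 3, WT 4 or VLDLR_KO 2 in the first form and without WT 1, WT 2, VLDLR_KO 3 or VLDLR_KO 5 in the second (adjusted p 0.0534 to 0.224 and 0.0595 to 0.202). Among 8 other mitochondrial antioxidant genes 3 were higher and 2 lower, then 0 higher and 1 lower, beside the same shares of all genes. Gsr, the glutathione reductase that spends NADPH, fell by 0.73 (SE 0.12, adjusted p = 0.000837) and 0.50 (SE 0.12, adjusted p = 0.0128), the second lost without WT 1, WT 2 or VLDLR_KO 5 (adjusted p 0.0567 to 0.108).

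Of 11 other peroxiredoxin and thioredoxin genes, 4 were higher and 1 lower in VLDLR_KO against WT with the digit before B (33.2% of all genes called). With the digit after B 2 were higher and 1 lower (13.4%). Txn1, the thioredoxin that Txnrd1 reduces, rose by 0.66 and 0.60 (edgeR adjusted p = 0.00648 and 0.0226). Prdx6 rose by 0.51 and 0.41 (adjusted p = 0.00621 and 0.0415). Without VLDLR_KO 2 the first calls of Txn1 and Prdx6 were lost (adjusted p = 0.112 and 0.0858). The second call of Txn1 was lost without WT 1 or WT 2 (0.0891 to 0.216), and that of Prdx6 without any of 10 libraries, namely WT 1 to 4, ROBO4_KO 1, 2, 4 and 5 and VLDLR_KO 3 and 5 (0.0538 to 0.327).

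Of 19 tested glutathione genes, 5 were higher and 0 lower in VLDLR_KO against WT with the digit before B (33.2% of all genes called). With the digit after B 4 were higher and 1 lower (13.4%). Gclm, the modifier subunit of the enzyme that starts glutathione synthesis, rose from 35.9 to 54.6 CPM in the group means of the first form and from 60.0 to 120 CPM in the second. Its log2 fold changes were 0.61 (SE 0.12, edgeR adjusted p = 0.00261) and 1.0 (SE 0.12, adjusted p = 0.000117), and both held without any 1 library. In ROBO4_KO against WT, Gclm had 0.45 and 0.44 with no call (adjusted p = 0.248 and 0.117). Mgst1, a membrane-bound glutathione transferase, rose by 1.91 (SE 0.20, adjusted p = 2.27e-05) and 0.81 (SE 0.20, adjusted p = 0.0201), the second lost without WT 1 or WT 2 (0.119 and 0.162).

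NRF2 regulators and other targets gave 4 higher and 1 lower of 13 in VLDLR_KO against WT with the digit before B (33.2% of all genes called). With the digit after B, where 13.4% of all genes were called, there was no edgeR call (3 at an unadjusted p under 0.05, 2 by DESeq2). With the digit before B, Ephx1, an epoxide hydrolase, rose by 1.95 (SE 0.38, edgeR adjusted p = 0.0023; -0.22 with the digit after B, adjusted p = 0.76) and Osgin1 by 0.78 (SE 0.17, adjusted p = 0.00564), the latter lost without VLDLR_KO 2 (adjusted p = 0.108). Maff, a small MAF partner of NRF2, fell by 1.68 in ROBO4_KO against WT with the digit after B (SE 0.36, adjusted p = 0.032), lost without WT 2, WT 4, ROBO4_KO 4 or ROBO4_KO 5 (0.0502 to 0.676). That comparison rests on the WT libraries with high Fos, and without them, over both forms, Maff had 0.32 (adjusted p = 0.969).

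Of 11 genes of heme and iron handling, 3 were higher and 1 lower in VLDLR_KO against WT with the digit before B (33.2% of all genes called). With the digit after B, where 13.4% of all genes were called, edgeR called none (1 at an unadjusted p under 0.05, 0 by DESeq2). Alas1, the rate-limiting enzyme of heme synthesis, fell in ROBO4_KO against WT, by 0.94 (SE 0.18, edgeR adjusted p = 0.0469) with the digit before B and by 1.70 (SE 0.17, adjusted p = 4.9e-05) with the digit after B. The second comparison rests on the WT libraries with high Fos, and its call was lost under 1 of 24 alternatives. The first call was lost without any of 10 libraries, namely WT 1 to 5, ROBO4_KO 1, 2, 4 and 5 and VLDLR_KO 5 (0.0511 to 0.436), and the second held without any 1 library. Tfrc, the transferrin receptor, fell by 2.08 in VLDLR_KO with the digit before B (SE 0.55, adjusted p = 0.0126) and Slc48a1, a heme transporter, rose by 0.53 (SE 0.16, adjusted p = 0.0244). With the digit after B, Tfrc had 1.38 (SE 0.52, adjusted p = 0.102), and its difference between forms was 3.46 (SE 0.76, adjusted p = 0.0116). The fall of Tfrc was not called without VLDLR_KO 2 (adjusted p = 0.113), nor Slc48a1 without WT 3, WT 4 or VLDLR_KO 2 (0.066 to 0.345).

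The 8 tested oxidant-producing genes gave 3 higher and 1 higher calls in VLDLR_KO against WT in the code forms, and none lower. Over all genes 33.2% and 13.4% were called there. Ncf4, a cytosolic subunit of the phagocyte NADPH oxidase, rose by 1.47 (SE 0.20, edgeR adjusted p = 0.000177) and 0.96 (SE 0.20, adjusted p = 0.00803), the second lost without WT 1 or WT 2 (0.0799 and 0.0815). In the list of copper, zinc and extracellular superoxide defence 1 of 7 was higher and 2 lower, then 0 higher and 2 lower, beside the same shares. Mt2, a metal-binding metallothionein, fell by 1.08 (SE 0.24, adjusted p = 0.00475) and 1.69 (SE 0.25, adjusted p = 0.000578), and both held without any 1 library.

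The 8 genes of the selenoprotein list are factors of selenoprotein synthesis, on which Gpx1, Gpx4 and Txnrd1 depend, and selenoproteins that are not such factors. In VLDLR_KO against WT 4 were higher and 0 lower with the digit before B (33.2% of all genes called). With the digit after B 0 were higher and 1 lower (13.4%). Of the synthesis factors only Sephs2 was called, and the other calls were of selenoproteins. Sephs2, which makes the selenium donor, rose by 1.03 with the digit before B (SE 0.12, edgeR adjusted p = 7.68e-05) and had 0.34 with the digit after B (adjusted p = 0.101). Selenop, a selenium carrier, rose by 0.48 (SE 0.14, adjusted p = 0.02) in the first form, lost without WT 3, WT 4 or VLDLR_KO 2 (0.0728 to 0.0876), and fell by 1.11 (SE 0.14, adjusted p = 0.00015) in the second.

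**Figure D5:**
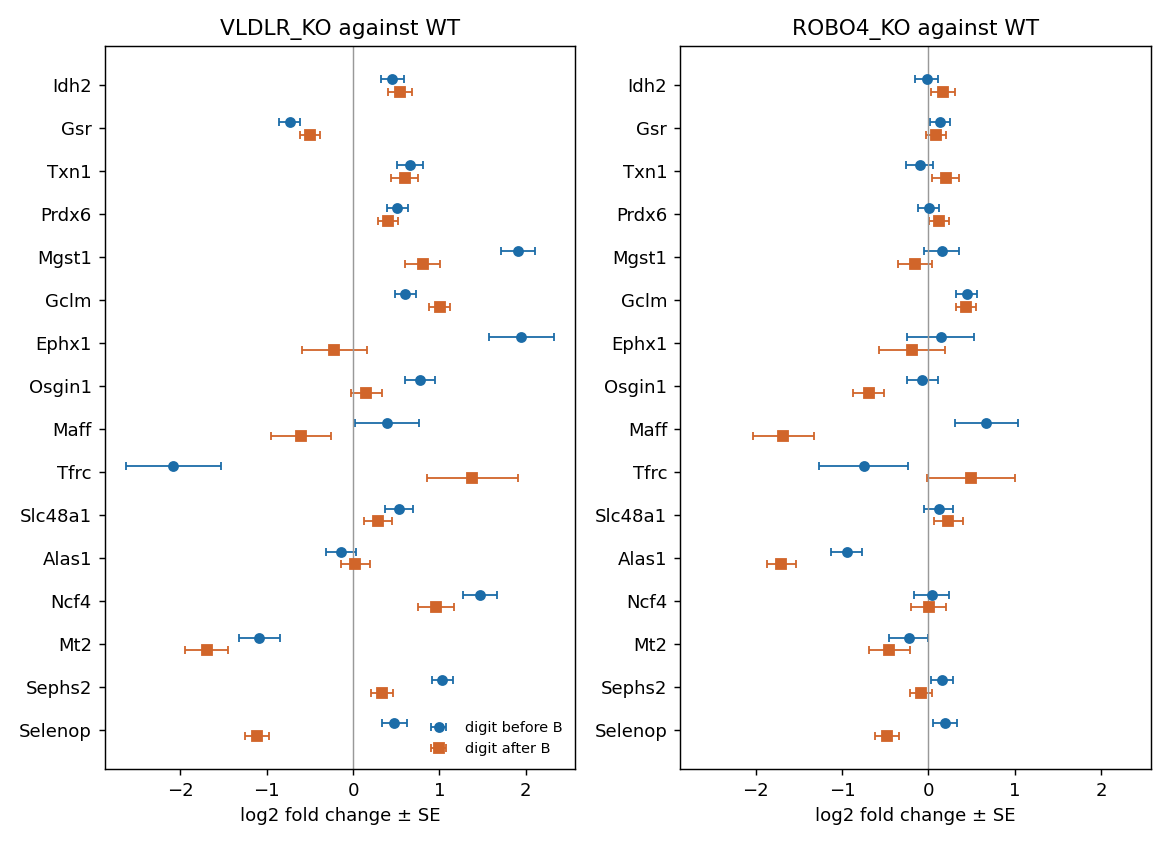
Log2 fold change (horizontal axis) with SE of the 16 named genes of the 9 pathway lists in VLDLR_KO (left) and ROBO4_KO (right) against WT, circles for the digit before B and squares for the digit after B. Gclm, Mgst1 and Ncf4 lie above 0 and Gsr and Mt2 below 0 in both forms in VLDLR_KO, and Alas1 lies below 0 in both forms in ROBO4_KO.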

How the data were processed

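RNA of 15 libraries was sequenced as paired-end reads after a SMARTER library preparation, per the labels' protocols. HISAT and Bowtie2, without versions, and the build GRCm38.p6 are listed, per the submitters' processing notes, and the quantifier is not given in the sources used here. The deposited gene and transcript tables hold estimated counts (expected counts) made by the authors, of which 92.6% are whole for genes. The authors also deposited FPKM, a unit inferred from the values since the headers name none.

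Counts were rounded and fitted in R 4.3.3 with edgeR 4.0.16 (TMM, filterByExpr, quasi-likelihood F tests, two-sided) over all 15 libraries with 6 groups, genotype by code form. A call is a Benjamini-Hochberg adjusted p under 0.05 over all 12198 genes, or 36240 transcripts, tested. CPM use TMM-scaled totals, and SE is the log2 fold change divided by the square root of F. Depth and the spread between 2 or 3 libraries a group both limit the precision.

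The 10 genes, the lists and the tests were chosen with earlier results of these data known. Beside the 10 genes and their main transcripts, the text names up to 3 genes per list called in the same direction in both code forms, otherwise up to 2 called in 1 form by lowest adjusted p, and the 5 genes most correlated with Nnt. The code was tested on simulated data. Alternatives were RLE scaling, no filter, DESeq2 1.42.0, limma 3.58.1 on log2(FPKM + 1), other models of the code form, a replicate block and leaving out each library.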

Additional observations from a re-analysis of the deposited data

Results flagged for a closer look

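Sod1 in VLDLR_KO replicate 2 (236 CPM) lay farther from the other 4 VLDLR_KO libraries than Dixon's criterion allows, with a gap of 0.838 of the group's range against a critical value of 0.71. Chance flags about 1 in 20 groups, and 30 groups of 5 libraries were examined.

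In 5 cases the effect of a genotype differed between code forms by a test of the difference itself (edgeR, digit after B minus digit before B, log2 scale). For VLDLR_KO against WT the difference was 0.87 for Txnrd1 (adjusted p = 0.0185), 0.83 for Hmox1 (adjusted p = 0.00282) and -0.44 for Sod2 (adjusted p = 0.0368). For VLDLR_KO against ROBO4_KO it was 0.86 for Txnrd1 (adjusted p = 0.029) and 0.91 for Hmox1 (adjusted p = 0.00513). The difference held without any 1 library for Hmox1, and was lost without some single libraries for Txnrd1 and Sod2. The osteoclast markers and Fos also differed between code forms, and their part in these results was not tested.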

How the results depend on the processing

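The counts of calls among the 9 genes depended on how the code form was modelled. With the form as an additive covariate, and with no form in the model, 0 were called in VLDLR_KO against WT and against ROBO4_KO in either form. With the additive form and both WT libraries of the digit after B left out, a setting chosen after seeing the data, 1 was called in VLDLR_KO against WT (in place of 2 in each form), 0 against ROBO4_KO and 2 between forms. Only the libraries of the form gave 0 for VLDLR_KO against ROBO4_KO with the digit before B and 2 with the digit after B, and DESeq2 gave 5 in the former. The digit of the code as a replicate block, whose pairing the labels do not state, gave 1 for VLDLR_KO against ROBO4_KO with the digit before B and 1 against WT with the digit after B. For the form comparison and the differences between forms the replicate block was not planned. It gave 2 between forms, where it compared only digit 1 after B with digit 3 before B. For the difference in VLDLR_KO against ROBO4_KO it gave 1. Leaving out each library in turn gave 2 to 6 calls for VLDLR_KO against WT and 0 to 5 against ROBO4_KO with the digit before B, 0 to 2 and 1 to 2 with the digit after B, 3 to 5 between forms, and 1 to 6 (against WT) and 1 to 5 (against ROBO4_KO) for the differences between forms. ROBO4_KO against WT kept 0 under all 24 alternatives in each form. Signs turned for Hmox1 with the additive form (0.063 against WT, 0.199 against ROBO4_KO) and with no form (0.061 and 0.198). They also turned with both WT libraries left out, a fit of 1 genotype effect over both forms. There Hmox1 had 0.18 against ROBO4_KO, opposite to the digit before B, and -0.11 against WT, opposite to the digit after B. In that fit every value against WT rests on WT libraries with the digit before B. Txnrd1 had 0.087 against ROBO4_KO with no form and -0.10 against WT without both WT libraries. Maff had 0.32 and Selenop 0.23 without both WT libraries, Selenop -0.31 (additive) and -0.25 (no form), and Tfrc 0.89 (no form). An effect common to both forms averages opposite changes by construction, and for the other settings the cause was not tested. The log2 fold change of Nnt against WT stayed between 0.81 and 1.13 over all alternatives, and that of VLDLR_KO against ROBO4_KO with the digit before B ran from -0.27 to 0.04, with a change of sign. Depth limits Nqo1, at 0.491 to 4.06 CPM.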
